A study of Mus musculus with 8 samples.

Results

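The genes described here code for 6 subunits of the Polycomb repressive complexes and for 4 histone deacetylases. They were chosen by name: Eed, Ezh1, Ezh2, Bmi1, Cbx2, Ring1, Hdac1, Hdac2, Hdac3 and Hdac5, each wherever the platform's probe annotation gives that symbol. All 10 genes were found, each with 1 probe, among 21582 probes for 15094 named genes. Expression was compared on 8 two-colour arrays between ethanol-exposed and control neurospheres from mouse embryonic cortex at gestational day 12.5. Exposed cultures received 320 mg/dl ethanol for 5 days in medium with basic fibroblast growth factor, epidermal growth factor and leukaemia inhibitory factor. They then differentiated for 3 days without ethanol. Control cultures had no ethanol. Differentiation in both was by removal of leukaemia inhibitory factor and epidermal growth factor, while basic fibroblast growth factor stayed in the medium. Each array carried both RNAs: ethanol-exposed RNA was in Cy5 and control RNA in Cy3 on replicates 5 to 8, and the dyes were the other way round on replicates 1 to 4. Strain, litter and the number of separate cultures were not stated in the labels, so p-values measure the spread between arrays, which may be technical.

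Polycomb proteins keep genes silent that a cell does not use. The complex called PRC2 methylates a lysine on the tail of a core histone: Ezh2 or its relative Ezh1 is the enzyme, and Eed binds the finished mark and stimulates the enzyme. The complex called PRC1 binds that mark through Cbx proteins such as Cbx2 and compacts or ubiquitinates chromatin through a RING pair, here Ring1 with Bmi1. Histone deacetylases remove acetyl groups that go with active genes. Hdac1, Hdac2 and Hdac3 are nuclear class I enzymes that work inside corepressor complexes, and Hdac5 is a class IIa enzyme that moves between nucleus and cytoplasm. In cortical progenitors, Ezh2 and Bmi1 are known for sustaining proliferation and for timing the switch between making neurons and making glia.

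The deposited values are log2 ratios of the 2 channels of an array. Every value below is such a ratio after subtraction of the array's median, so that 0 is the middle probe of that array. Levels of a gene, and differences in level between genes, cannot be read from them. Which channel stands above the line is not given in the sources used here. Each probe was therefore described by a turning part and a shared part. The turning part is the mean with ethanol in Cy5 minus the mean with ethanol in Cy3, divided by 2. It holds the ethanol effect if dye was divided by dye. The shared part is the mean of the orientations and holds the ethanol effect if condition was divided by condition. Under either reading the remaining part holds effects of the dyes. Any other difference between the 2 sets of arrays falls in the turning part under both readings. A sign therefore never says whether a transcript was more or less abundant after ethanol.

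Between 75.4% and 87.1% of probes per array had a computable ratio. The array medians before centring lay between 0.023 and 0.516 with ethanol in Cy5 and between -0.435 and -0.324 with ethanol in Cy3. Over 10486 probes with values on all arrays, the correlation between arrays averaged 0.255 within ethanol in Cy5, 0.33 within ethanol in Cy3 and -0.09 between the orientations. The members had 74 of 80 possible values, none of them at the smallest ratio the deposited rounding can hold. A total of 6 genes (Eed, Bmi1, Ring1, Hdac2, Hdac3 and Hdac5) had values on all 8 arrays. Cbx2 had values on only 2 arrays with ethanol in Cy3 and was not tested, since a test needed 3 arrays of each orientation; the other 9 members were tested.

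Eed was the only member that passed the test, and it did so in the turning part. Its log2 ratios were 0.26, 3.54, 0.90 and 1.87 on replicates 5, 6, 7 and 8, with ethanol in Cy5, against -3.48, -2.37, -2.32 and -3.53 on replicates 1, 2, 3 and 4, with ethanol in Cy3. All values with ethanol in Cy5 were positive and all values with ethanol in Cy3 were negative, and the orientations did not overlap. The means were 1.64 ± 1.43 with ethanol in Cy5 and -2.93 ± 0.67 with ethanol in Cy3 (SD, n = 4 arrays each), which are 4.57 apart on the log2 scale. The turning part was 2.28 ± 0.40 (SE; 95% interval 1.40 to 3.17), or 4.87-fold (2.64 to 9.0), with a Benjamini-Hochberg adjusted p of 0.0185 over all 15345 probes tested (limma). Of those probes 1.56% passed, 118 positive and 121 negative, so that 1 of 9 tested members (11.1%) rests on Eed alone. With the ratios not centred, 417 probes passed, 312 of them positive. The median turning part of all tested probes was 0.11 after centring and 0.42 without it, and that of Eed lay above both, at 2.28 and 2.60.

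**Figure D1:**
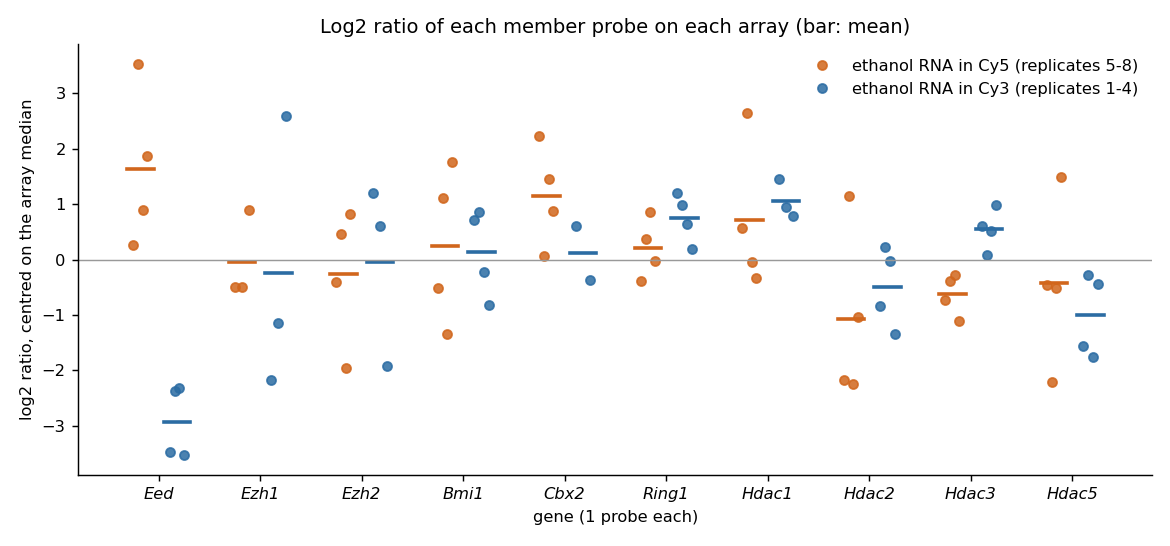
Centred log2 ratio (vertical axis) of the probe for each of the 10 genes (horizontal axis) on each array, with ethanol-exposed RNA in Cy5 in orange on the left and in Cy3 in blue on the right; points are arrays and bars are means. Eed lies between 0.26 and 3.54 with ethanol in Cy5 and between -3.53 and -2.32 with ethanol in Cy3, and Hdac3 also separates, the other way and by less.

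The same values can be placed among the other probes of their array. With ethanol in Cy5, between 63.3% and 97.8% of the tested probes lay below it, and with ethanol in Cy3 between 2.1% and 8.0%. The lowest of these, on replicate 5, was within the range of the array's middle probes. Its turning part was larger in size than 98.4% of all tested ones, and 176 of the 239 probes that passed had a larger one. The adjusted p was 0.0618 without replicate 1, 0.0684 without replicate 4, 0.0701 without replicate 8 and 0.337 without the 3 arrays whose code ends in r, while the turning part stayed between 1.97 and 2.51 whichever single array was left out. In the shared part Eed read -0.64 ± 0.40 (SE; interval -1.53 to 0.24) and did not pass (limma adjusted p = 0.489).

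The promoters of Eed and of Ezh2 are shown for the subunits of the same complex of which Eed passed and Ezh2 did not. They are RefSeq sequences of GRCm38.p6, from 250 bases before to 50 bases after the transcription start, on the gene's strand, which is the minus strand for both. Capitals mark CCAAT, or its other strand ATTGG, and TTTGGCGC, or its other strand GCGCCAAA; no marked stretches overlap. Eed lies at chr7:89980927-89981226 and Ezh2 at chr6:47594981-47595280.
Eed: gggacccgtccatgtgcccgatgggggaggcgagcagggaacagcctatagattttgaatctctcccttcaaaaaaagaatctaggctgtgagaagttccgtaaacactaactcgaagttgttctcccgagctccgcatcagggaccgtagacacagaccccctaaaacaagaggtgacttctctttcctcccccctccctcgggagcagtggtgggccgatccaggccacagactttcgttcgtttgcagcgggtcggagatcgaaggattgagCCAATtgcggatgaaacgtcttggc
Ezh2: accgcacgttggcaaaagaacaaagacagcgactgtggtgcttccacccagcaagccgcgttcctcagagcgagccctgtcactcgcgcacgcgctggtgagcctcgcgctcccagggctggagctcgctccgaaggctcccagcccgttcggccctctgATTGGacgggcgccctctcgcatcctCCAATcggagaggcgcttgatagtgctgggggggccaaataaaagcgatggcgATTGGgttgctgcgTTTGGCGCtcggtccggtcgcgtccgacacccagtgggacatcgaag
The Eed window holds 1 CCAAT and the Ezh2 window 3, a motif found in 37.4% of 32851 mouse promoter windows of the same length. The Ezh2 window also holds 1 TTTGGCGC, a form of the sequence that E2F factors bind, which 0.514% of the windows have, and the Eed window has none. CG dinucleotides number 17 in the Eed window and 31 in the Ezh2 window, against a median of 7 over all windows. The ratios do not bear on these motifs, and a match is only a match of letters.

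The enzymes of PRC2 showed no difference between the orientations that passed. The log2 ratios of Ezh2 were -0.40, 0.47, -1.96 and 0.83 on replicates 5 to 8, against 1.20, 0.61 and -1.92 on replicates 2, 3 and 4, with no value on replicate 1. Both orientations held positive and negative values and overlapped almost completely. Its turning part was -0.11 ± 0.50 (SE; interval -1.24 to 1.01; limma adjusted p = 0.950) and its shared part -0.15 ± 0.50 (interval -1.27 to 0.97; adjusted p = 0.916). Ezh1, the relative that in mice takes over in many non-dividing cells, had values on 6 arrays: -0.50, -0.50 and 0.90 on replicates 6, 7 and 8, against -2.17, -1.15 and 2.60 on replicates 2, 3 and 4. Replicate 4 alone was far above zero. Ezh1 had the widest intervals of the members, from -1.34 to 1.55 around a turning part of 0.10 and from -1.58 to 1.31 around a shared part of -0.14 (limma adjusted p = 0.966 and 0.941). The turning part interval of Ezh1 overlaps that of Eed, while that of Ezh2 lies below it.

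The PRC1 subunits showed no difference that passed. Bmi1, the RING partner that raises the activity of the ubiquitin ligase, read -0.51, 1.11, -1.34 and 1.76 on replicates 5 to 8, against 0.72, 0.86, -0.22 and -0.82 on replicates 1 to 4. Its values crossed zero in both orientations, with a turning part of 0.06 (interval -0.84 to 0.96) and a shared part of 0.20 (interval -0.71 to 1.10; limma adjusted p = 0.969 and 0.854). Ring1, one of the ligase subunits, was among the steadiest members, with -0.39, 0.38, 0.86 and -0.03 on replicates 5 to 8, against 1.20, 0.99, 0.65 and 0.19 on replicates 1 to 4. It was above the array's middle on 6 of 8 arrays, and the orientations overlapped. Its shared part was 0.48 ± 0.29 (SE; interval -0.16 to 1.12) and its turning part -0.27 ± 0.29 (interval -0.92 to 0.37), neither of which passed (limma adjusted p = 0.480 and 0.740).

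Cbx2, a chromodomain subunit that reads the Polycomb mark, is given without a test. Its log2 ratios were 2.23, 0.07, 1.46 and 0.87 on replicates 5 to 8, against 0.60 and -0.36 on replicates 2 and 4. The value was positive on 5 of 6 arrays, and the orientations overlapped. The means were 1.16 ± 0.91 with ethanol in Cy5 (SD, n = 4) and 0.12 ± 0.68 with ethanol in Cy3 (SD, n = 2).

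Among the class I deacetylases, Hdac3 was the other member whose orientations did not overlap. Hdac3, the catalytic subunit of the nuclear receptor corepressor complexes, read -0.72, -0.38, -0.28 and -1.10 on replicates 5 to 8, against 0.61, 0.08, 0.51 and 0.98 on replicates 1 to 4. All values with ethanol in Cy5 were negative and all values with ethanol in Cy3 were positive, the reverse of Eed. The size was small, with means of -0.62 ± 0.37 with ethanol in Cy5 and 0.55 ± 0.37 with ethanol in Cy3 (SD, n = 4 each) and a turning part of -0.58 ± 0.28 (SE; interval -1.20 to 0.03), which did not pass (limma adjusted p = 0.391). An exact two-sided permutation of the orientations gave p = 0.0286 for Hdac3 and for Eed, which is the smallest p that 70 splits allow and is not adjusted for the number of probes. Of all tested probes 10.9% had orientations that did not overlap, against 2 of 9 members (22.2%). The shared part of Hdac3 was the closest to zero of the tested members, at -0.04 (interval -0.65 to 0.58; limma adjusted p = 0.962).

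Hdac1 and Hdac2, near relatives that pair in the same corepressor complexes, lay on opposite sides in the shared part without passing. Hdac1 read 0.57, 2.65, -0.04 and -0.33 on replicates 5 to 8, against 1.46, 0.95 and 0.78 on replicates 1, 3 and 4. Hdac2 read -2.17, 1.15, -2.25 and -1.03 on replicates 5 to 8, against -0.84, 0.23, -0.02 and -1.35 on replicates 1 to 4. Hdac1 was positive on 5 of 7 arrays and Hdac2 negative on 6 of 8, and both had their highest value on replicate 6. The shared part was 0.89 ± 0.42 for Hdac1 (SE; interval -0.06 to 1.83; limma adjusted p = 0.385) and -0.79 ± 0.42 for Hdac2 (interval -1.73 to 0.15; limma adjusted p = 0.433). Their turning parts were -0.17 (interval -1.12 to 0.78) and -0.29 (interval -1.23 to 0.65), neither passing (limma adjusted p = 0.899 and 0.814).

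Hdac5, the class IIa member, which represses targets of the transcription factor MEF2, read -0.45, -2.2, -0.52 and 1.5 on replicates 5 to 8, against -1.55, -0.27, -1.76 and -0.44 on replicates 1 to 4. It was negative on 7 of 8 arrays, with replicate 8 as the exception. The shared part was -0.71 ± 0.41 (SE; interval -1.63 to 0.21; limma adjusted p = 0.466) and the turning part 0.29 ± 0.41 (interval -0.63 to 1.22; limma adjusted p = 0.808).

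**Figure D2:**
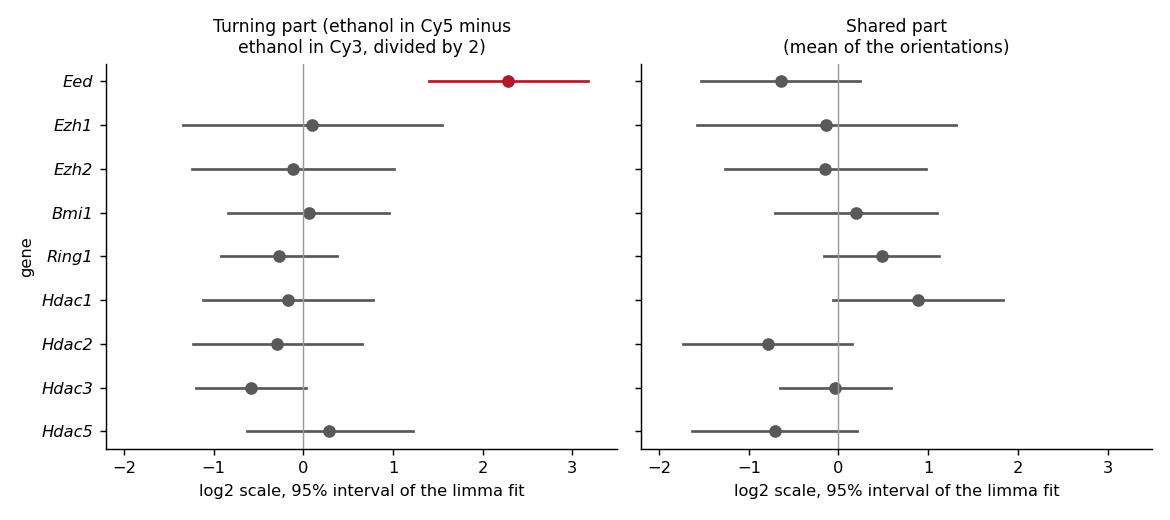
Turning part (left) and shared part (right) of the 9 tested members on the log2 scale, with 95% intervals of the limma fit; the red point is past an adjusted p of 0.05. The interval of Eed runs from 1.40 to 3.17 in the turning part, while all other intervals in both panels include 0.

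In the shared part 0 of 9 members passed, and no probe of the series did (0.0%; smallest limma adjusted p = 0.136). No member had an unadjusted p under 0.05 there, against 13.9% of all tested probes, and the smallest was 0.0636 for Hdac1. Bmi1, Ring1 and Hdac1, 3 of the members, were positive and 6 were negative, with a median of -0.14 against -0.06 over all tested probes. No tested member kept the same sign on every array, which 3.57% of all probes did. In the turning part 4 members were positive and 5 negative, with a median of -0.11 against 0.11 over all probes, and Eed was the only one with an unadjusted p under 0.05, against 13.8% of all probes.

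Several members also varied together or apart over the arrays of both orientations. Pearson correlations over the arrays where both genes had values were computed for 42 pairs with at least 6 such arrays. Their median was 0.08, with 2 over 0.7 and 3 under -0.7. The points of a pair share their arrays and the centring, so these are descriptions only. Ezh2 and Bmi1, from different Polycomb complexes, had r = 0.84 (rho = 0.82, n = 7 arrays): both were low on replicates 4 and 7 and high on replicates 2, 6 and 8. Without replicates 6 and 7 the value was 0.76 over 5 arrays. Hdac2 followed them less closely, with r = 0.69 against Ezh2 (n = 7) and 0.62 against Bmi1 (n = 8), and the last value was 0.36 without replicates 6 and 7. Hdac1 and Hdac2 had r = 0.78 (n = 7), which rested on replicates 6 and 7, since it was 0.25 without them. Hdac1 and Hdac5 ran opposite, with r = -0.84 (rho = -0.82, n = 7) and -0.94 without replicates 6 and 7. Eed and Ezh2 had r = 0.18 (n = 7). Ezh1 had r = -0.79 with Ring1 and -0.58 with Ezh2 (n = 6 for both). Eed and Hdac3 were separated by orientation in opposite directions, so that no value over the pooled arrays is given for this pair.

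**Figure D3:**
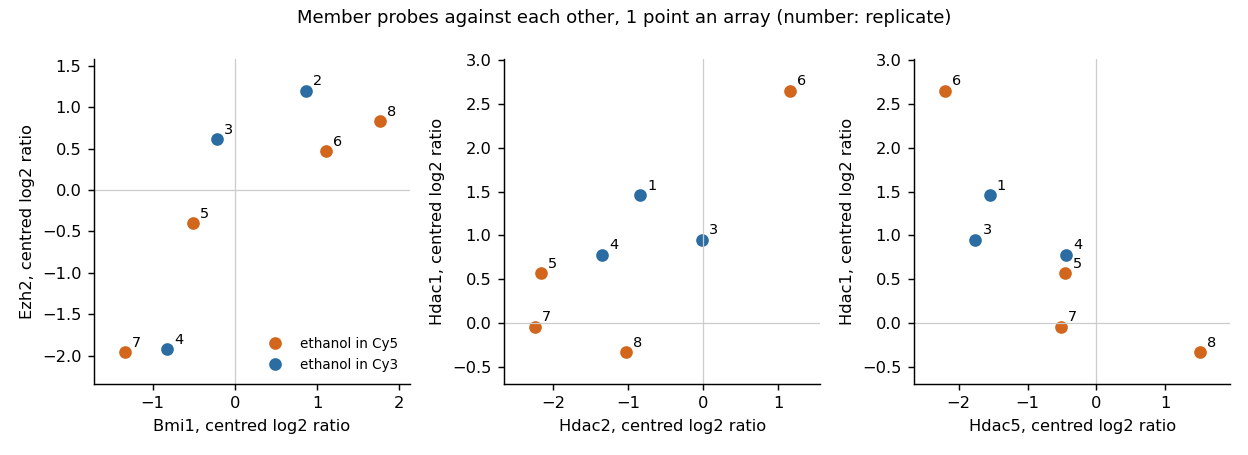
Centred log2 ratios of Ezh2 against Bmi1 (left), Hdac1 against Hdac2 (middle) and Hdac1 against Hdac5 (right), 1 point an array, numbered by replicate, with ethanol in Cy5 in orange and in Cy3 in blue. The left panel rises with r = 0.84, the middle one with 0.78 and the right one falls with r = -0.84, each over 7 arrays with both orientations mixed along the trend.

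The probes whose values over the 8 arrays were most like those of Eed, among 10486 with values on all arrays, belonged to Armcx1 (r = 0.984), Psmg1 (r = 0.982), Ccdc134 (r = 0.982), Lbh (r = 0.974) and Rbm47 (r = 0.969). All were higher with ethanol in Cy5 than with ethanol in Cy3, so the likeness includes the split by orientation. Psmg1 codes for a chaperone of proteasome assembly and Rbm47 for an RNA-binding protein. The turning parts were 1.42 for Armcx1, 2.16 for Psmg1, 1.84 for Ccdc134, 2.28 for Lbh and 1.6 for Rbm47. Those of Psmg1, Lbh and Rbm47 passed (limma adjusted p = 0.0371, 0.00540 and 0.0479), against 1.56% of all tested probes. The genes were chosen for their likeness to Eed on the same arrays, so large turning parts were built into the choice.

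Other genes of the same machinery were taken from 7 lists with 102 genes, of which 81 had a probe and 74 were tested. None of the 74 passed in either part (limma, over all probes). An unadjusted p under 0.05 was found for 9 in the turning part (13.8% of all probes) and for 13 in the shared part (13.9% of all probes). Orientations did not overlap for Rbbp7, Pcgf5 and Rybp, higher with ethanol in Cy5, or for Pcgf2, Phc1, Mta2 and Kdm6a, lower with it. The other tested genes of these lists overlapped, and 10.9% of all tested probes did not.

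Of the other PRC2 subunits 7 of 8 were tested, with a median turning part of 0.44 and a median shared part of 0.10. Rbbp7, a histone chaperone subunit, had a turning part of 0.90 ± 0.34 and Phf1, an accessory subunit, 0.58 ± 0.39 (SE; limma adjusted p = 0.268 and 0.568). Aebp2, a zinc finger accessory subunit, had the lowest shared part, -2.04 ± 0.70 (adjusted p = 0.263), and Phf1 read -0.76 ± 0.39 there (adjusted p = 0.414). Suz12, another core subunit, was singled out after its values were seen. Its log2 ratios were -0.64, 2.91, 0.59 and -0.10 on replicates 5 to 8, against -0.20, -0.60, -0.67 and 0.73 on replicates 1 to 4. The turning part of Suz12 was 0.44 ± 0.41 (limma adjusted p = 0.709). The orientations of Suz12 overlapped, unlike those of Eed and of Rbbp7. Rbbp7 read 1.59, 1.51, 1.41 and 1.38 on replicates 5 to 8, against 1.34, -0.64, -0.85 and -1.14 on replicates 1 to 4.

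Of the other PRC1 genes 13 of 17 were tested, with medians of 0.00 in the turning part and 0.13 in the shared part. Rybp, a subunit of variant PRC1 complexes, was the gene of these lists closest to Eed in size, with a turning part of 2.42 ± 0.58 (SE; limma adjusted p = 0.0917). Its log2 ratios were 2.54, 5.00, 1.18 and 5.72 on replicates 5 to 8, against -1.64, 0.04 and -2.10 on replicates 2, 3 and 4. The orientations of that probe did not overlap, but the second Rybp probe read -0.07 in the turning part. Pcgf2, a relative of Bmi1, read -0.86 ± 0.29 in the turning part (adjusted p = 0.211). In the shared part Rnf2, the relative of Ring1 that carries most of the ligase activity in mouse stem cells, read -1.60 ± 0.48, and the Bmi1 relative Pcgf5 -1.11 ± 0.29 (adjusted p = 0.231 and 0.202), with -0.37 on another Pcgf5 probe.

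Of the other histone deacetylases 4 of 7 were tested (Hdac6, Hdac7, Hdac8 and Hdac9), all positive in the turning part with a median of 0.43. Hdac6, the cytoplasmic tubulin deacetylase, read 0.86 ± 0.41 there and Hdac9, a class IIa relative of Hdac5, 0.37 ± 0.28 (SE; limma adjusted p = 0.393 and 0.626). In the shared part Hdac9 read -0.66 ± 0.28 and was negative on 8 of 8 arrays (adjusted p = 0.340), and Hdac8, a class I enzyme, read -0.15 ± 0.39 (adjusted p = 0.888). Of the subunits of deacetylase corepressor complexes 16 of 22 were tested, with medians of 0.01 in the turning part and -0.06 in the shared part. The scaffold gene Sin3b read 1.17 ± 0.40 and the demethylase gene Kdm1a -0.71 ± 0.40 in the turning part (adjusted p = 0.223 and 0.481), and the other Sin3b probe read 0.24. Sap18 read -1.71 ± 0.57 in the shared part (adjusted p = 0.253). Tbl1xr1 read 1.07 ± 0.41 there (adjusted p = 0.301), against -1.64 on another of its probes.

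Enzymes that oppose Polycomb repression or deacetylation had medians of 0.04 in the turning part and -0.07 in the shared part over 12 tested of 18. Kdm6a, which removes the Polycomb mark, read -2.71, -4.18, -3.11 and -2.50 on replicates 5 to 8, against 0.27, -0.82 and 1.75 on replicates 2, 3 and 4. Its orientations did not overlap, which also held for 10.9% of all tested probes. The turning part of Kdm6a was -1.76 ± 0.41, without passing (SE; limma adjusted p = 0.0791). Its shared part was -1.36 ± 0.41 (adjusted p = 0.232), and that of the acetyltransferase gene Ep300 was -1.20 ± 0.38 (adjusted p = 0.238). The acetyltransferase gene Kat2a read 0.54 ± 0.44 in the turning part (adjusted p = 0.656).

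**Figure D4:**
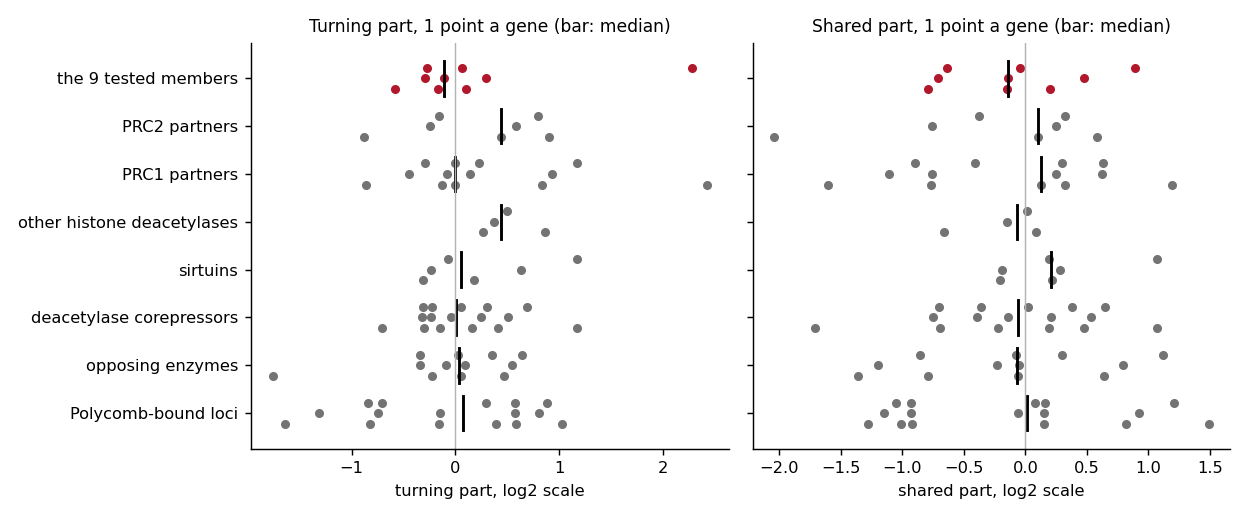
Turning part (left) and shared part (right) on the log2 scale of the 9 tested members (red) and of the tested genes of 7 related lists (grey), 1 point a gene, with a bar at each list's median. Eed at 2.28 and the Rybp probe at 2.42 lie to the right of all other genes in the left panel. Medians of the related lists there run from 0.00 to 0.44, and that of the members is -0.11.

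Cell type markers were read because bulk RNA cannot tell fewer cells of a type from less RNA per cell. Ratios do not show whether a marker is expressed, only whether a ratio could be computed, and that held on 3 arrays of each orientation for 8 of 8 neural progenitor, 5 of 8 neuronal, 7 of 8 astrocyte and 6 of 8 oligodendrocyte lineage genes. It also held for 5 of 8 microglial, 7 of 8 endothelial, 3 of 8 meningeal fibroblast and 4 of 8 erythroid genes. None of these 45 genes passed in either part. List medians lay between -0.12 (neural progenitor) and 0.56 (oligodendrocyte lineage) in the turning part, and between -0.81 (astrocyte) and 0.70 (neural progenitor) in the shared part. Single markers ranged further than the medians. In the shared part they ran from -1.92 for the oligodendrocyte lineage gene Cldn11 to 1.31 for the progenitor gene Pax6 (limma adjusted p = 0.226 and 0.504). The other Pax6 probe read 0.05 there. In the turning part, where Eed read 2.28, they ran from -1.51 for the endothelial gene Cdh5 to 3.82 ± 0.84 for Pax6 (SE; limma adjusted p = 0.0572). The orientations of that Pax6 probe did not overlap, with 3.07 the lowest value with ethanol in Cy5 and 3.04 the highest with ethanol in Cy3. The other Pax6 probe read 0.56 in the turning part. The orientations did not overlap for Cdh5 (adjusted p = 0.128, 6 arrays) or for the microglial gene C1qa, at 1.39 (adjusted p = 0.124), either. Nor did they overlap for the markers Prom1, Syp, S100b and Sox10. Of all tested probes 10.9% had orientations that did not overlap. All these genes were named after their values were seen, and their lists held both signs in the turning part. Positive there were 2 of 8 tested progenitor, 4 of 7 endothelial and 4 of 5 microglial genes. The part of cell makeup in the Eed value was not tested.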

How the data were processed

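Per the labels' protocols, total RNA was extracted with Trizol and RNeasy columns and labelled with a 3DNA kit for Cy3 and Cy5. The authors deposited log2 ratios without intensities. How the arrays were scanned, background-corrected and normalized is not given in the sources used here. On every array the low values lie on a grid of ratios rounded to 0.001 plus a constant (100.0% within 0.0011 on the log2 scale). The highest value of each array equals that constant plus the log2 of 100000. That value and exact 0 were taken as missing. Each array was centred on its median.

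Of 21582 probes, the 15345 with 3 or more values in both orientations were fitted with limma 3.58.1 in R 4.3.3 (lmFit, eBayes) with a shared and a turning coefficient, and Benjamini-Hochberg adjustment ran over all of these probes (threshold 0.05). The fit was tested on simulated data with independent noise on each array, so noise correlated between arrays was not covered. The number of arrays limits the precision.

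Probes were named from the platform annotation, with symbols updated through Entrez numbers of GRCm38.p6, which matched for 15957 probes. Of all probes 16635 had 1 symbol, 113 several and 4834 none. Promoters were matched by symbol for 7 of 10 members. Members and lists were chosen with earlier results of these data known. Every member was named. Of the related lists, genes that passed, and up to 2 per list and part with the smallest unadjusted p, were named. Suz12 was named besides. In related and marker lists, genes whose orientations did not overlap were also named after their values were seen. So were the markers at the ends of a range, and no marker passed. Where a listed gene had more than 1 probe, a tested one with values on most arrays stood for it, ties going to the first identifier. For the member with the smallest adjusted p, the 5 genes with the highest Pearson correlation over 8 arrays were named. The alternatives tried were other centring, scaling, missing-value rules, filters, weights, a term for array codes ending in r, blocks by code number and leaving out arrays.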

Additional observations from a re-analysis of the deposited data

Results flagged for a closer look

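The ratio of the Eed probe differed between the dye orientations, with every value positive where ethanol-exposed RNA carried Cy5 and every value negative where it carried Cy3. Its turning part was 2.28 (limma adjusted p = 0.0185 over all tested probes, 4 of 4 arrays on each side). The dye and the array set cannot be told apart from the orientation here, and the annotation names no second Eed probe. Within the 15 orientations of member probes that had values on 4 arrays, no single array stood far from the other 3; chance alone puts about 1 in 20 such groups there.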

How the results depend on the processing

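The turning part of Eed kept its sign under 21 of 21 alternative fits and passed the adjusted threshold under 16. The exact permutation p of Eed and of Hdac3, 0.0286 for both, is unadjusted and is not counted among these. The turning part of Eed was 2.25 without the 3 r arrays (limma adjusted p = 0.337, 5 arrays), and 1.97 to 2.51 with single arrays left out (adjusted p 0.0179 to 0.0701). With the arrays' code number as a replicate block on 3 pairs, 6 arrays, it was 1.87 (adjusted p = 0.241). Arrays sharing a code number did not deviate together from the means of their orientations (r = 0.016, -0.035 and 0.040). What the numbers stand for is not given in the labels. Noise between arrays could hide a pairing, so these values cannot decide whether the numbers pair them. The count of probes passed in the turning part was 239. It was 417 (312 positive) without centring, 260 (166 positive) with exact 0 kept, 79 without the r arrays, 62 with the block and 144 to 192 with single arrays left out (155 without replicate 4, 155 without replicate 6, 144 without replicate 8). In the shared part 1 probe passed when each array's highest value was kept, and 0 under the other 19 alternatives. Of 336 values under alternative fits for the 17 member results that did not pass, 328 moved by at most 1 SE, 8 by more, and 0 passed (lowest adjusted p = 0.229). Fewer arrays remain in the settings that leave arrays out; the other causes were not tested. The correlations without replicates 6 and 7 were chosen after seeing the data. Signal over background is not known, so dim probes could not be set apart.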

Other observations

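Loci that textbooks give as bound by Polycomb in mouse cells, 23 genes of which 16 were tested, showed no common side. In both parts 8 were positive, with medians of 0.07 in the turning part and 0.01 in the shared part, and none passed with limma. Gata4, a regulator of heart and endoderm, read 1.02 ± 0.45 in the turning part and -1.15 ± 0.45 in the shared part (SE; limma adjusted p = 0.351 and 0.307). The Hox genes with the smallest unadjusted p were Hoxb9, at -1.31 ± 0.62 in the turning part, and Hoxa5, at -0.92 ± 0.45 in the shared part (adjusted p = 0.397 and 0.389).

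The sirtuins are deacetylases that depend on NAD and are unrelated to the enzymes above. Of 7 genes 6 were tested, with medians of 0.05 in the turning part and 0.21 in the shared part, and none passed with limma. The mitochondrial sirtuin genes Sirt5 and Sirt4 read 1.17 ± 0.52 and 0.63 ± 0.46 in the turning part (SE; adjusted p = 0.35 and 0.611). In the shared part Sirt4 read 1.07 ± 0.46, positive on 7 of 8 arrays, and Sirt3 0.22 ± 0.31 (adjusted p = 0.343 and 0.778).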
